A study of Mus musculus with 7 samples.

Results

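CD4 T cells that carry Fcer1g, the gene of the Fc receptor gamma chain, were examined among small intestinal intraepithelial lymphocytes (IEL) of young and old mice. The cells were those with a productive T cell receptor beta (TRB) contig, at least 1 unique molecular identifier (UMI) of Cd4 and of Fcer1g, and 0 UMIs of Cd8b1 and Trdc, which mark CD8αβ and γδ T cells. This rule found 209 of the 4348 cells of young IEL and 597 of the 5811 cells of old IEL, or 7.57% and 16.6% of the 2760 and 3586 cells with a TRB contig. These Cd4+Fcer1g+ IEL, selected on their measured Cd4, Fcer1g, Cd8b1 and Trdc counts, were compared between the ages, with the 668 young and 970 old cells that met the same rule but had 0 UMIs of Cd4 (Cd4-Fcer1g+ IEL), and with the 929 young and 1179 old Cd4 cells that had 0 UMIs of Fcer1g (Cd4+Fcer1g- IEL).

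The series holds 5′ single-cell gene expression and T cell receptor sequences of 4 pools, namely IEL and spleen (SP) T cells of C57BL/6 male mice aged 6 weeks (young) or 80 weeks (old), each pool from 3 mice of that age according to the labels and methods, although a figure legend of the study gives more young mice. CD45+ cells had been enriched on beads, stained with hashtag antibodies, and sorted as live CD3+ cells. For IEL of both ages the authors combined equal numbers of all sorted CD3+ cells and of sorted CD3+CD4+ cells, and this mix raised the frequency of Cd4 cells. With 1 pool per group there were no replicates, no test between groups was made, age and pool cannot be told apart, and the mouse of origin of a cell was not analysed here. The IEL pools held 32248487 UMIs (young) and 33314700 UMIs (old), the SP pools 35009348 and 39915809, and 0 barcodes were shared between pools. The Cd4+Fcer1g+ IEL had a median of 7468 UMIs per cell in young and 5781 in old IEL. All intervals given are 95% intervals, exact binomial (Clopper-Pearson) for shares of cells and exact Poisson for UMI levels, and cover counting error only, not the spread between mice.

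The Fc receptor gamma chain is a small adaptor that, like Tyrobp (DAP12) and the CD3 zeta chain (Cd247), carries an immunoreceptor tyrosine-based activation motif (ITAM), which is phosphorylated when a partner receptor is engaged and then recruits kinases of the Syk family. It is best known from mast cells, myeloid cells and natural killer (NK) cells, and most peripheral T cells use the zeta chain alone. In the gut epithelium, so-called natural IEL lack CD4 and CD8β, carry CD8α homodimers, express NK receptors such as Klrd1 (CD94), and have little of the conventional T cell receptors Cd5, Cd6, Thy1 and Cd28. CD4 T cells that enter the epithelium can also take up CD8α homodimers and lose part of the helper programme.

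T cell receptor junctions name the clones that the cells belong to, so those of large clonotypes of each age, a clonotype being a distinct TRB CDR3 nucleotide sequence and numbered by its Cd4+Fcer1g+ cells, are shown here 5′ to 3′. Lower case marks bases that match the germline V gene (left) or J gene (right) of GENCODE M21, and capitals mark the bases between them, where the D segment and added nucleotides lie.
Old IEL clonotype 1, TRBV13-1 TRBJ2-3: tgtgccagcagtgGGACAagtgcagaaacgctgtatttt
Old IEL clonotype 2, TRBV2 TRBJ2-3: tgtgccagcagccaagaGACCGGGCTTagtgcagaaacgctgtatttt
Young IEL clonotype 1, TRBV13-3 TRBJ2-5: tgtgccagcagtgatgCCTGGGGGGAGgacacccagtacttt
Young IEL clonotype 2, TRBV12-1 TRBJ2-1: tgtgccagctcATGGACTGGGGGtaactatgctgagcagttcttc
Young IEL clonotype 3, TRBV2 TRBJ2-1: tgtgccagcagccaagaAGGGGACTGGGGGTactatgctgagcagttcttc

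Since Cd4 and Fcer1g chose the cells, their values are a description. Fcer1g (chr1:171229572-171234365, minus strand, GRCm38) was far above the threshold in most of them, with at least 5 UMIs in 187 of the 209 young cells (89.5%) and 558 of the 597 old cells (93.5%), and medians of 20 and 19 UMIs. Only 18 young cells (8.61%) and 28 old cells (4.69%) had exactly 1 UMI. Cd4 (chr6:124864692-124888221, minus strand), in contrast, was at 1 UMI in 112 young (53.6%) and 301 old (50.4%) of the Cd4+Fcer1g+ IEL.

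Cells just inside the Fcer1g threshold were close to cells just outside it for Klrd1 and Cd5. Klrd1 was found in 2 of 18 young and 3 of 28 old cells with 1 Fcer1g UMI, against 56 of 929 young and 86 of 1179 old cells with 0 UMIs. Cd5, a receptor of conventional T cells that dampens antigen receptor signals, was found in 77.8% of young cells and 92.9% of old cells with 1 UMI, and in 75.8% and 91.6% of the cells with 0. Among cells with at least 5 UMIs, Klrd1 was found in 94.7% of young and 98.2% of old cells, and Cd5 in 7.49% and 4.48%. The rule thus gathered a large group with high Fcer1g and a small one at 1 UMI that had Cd5 and mostly lacked Klrd1.

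**Figure D1:**
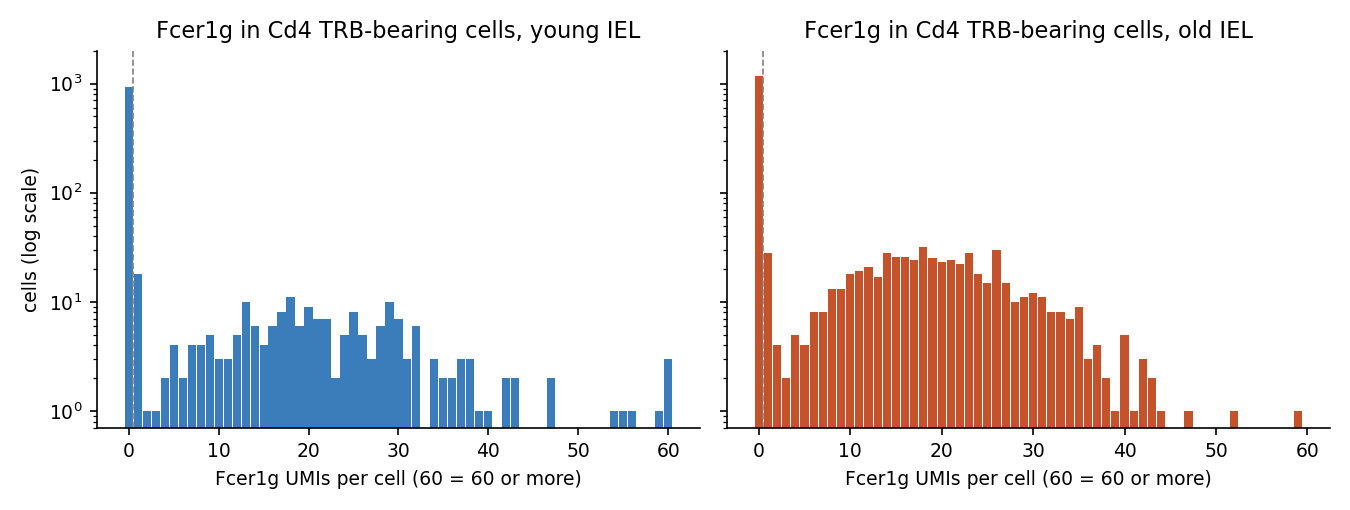
Number of Cd4 TRB-bearing cells (log axis) by their Fcer1g UMIs per cell in young and old IEL, with all cells of 60 or more UMIs in the last bar and the threshold of the rule as a dashed line. The cells at 1 UMI number 18 in young and 28 in old IEL, few cells lie between 2 and 4, and the bulk of the cells with Fcer1g lies at 5 or more UMIs.

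A UMI of Cd4 was not by itself proof of expression, and 0 UMIs did not show absence. In γδ IEL, which should lack Cd4, a Cd4 UMI was found in 6.56% of 1036 young cells (median 6759 UMIs) and 2.61% of 881 old cells (median 6094 UMIs). When each cell was thinned at random to 2000 UMIs, a Cd4 UMI was left in 38.3% of young and 50.7% of old Cd4+Fcer1g+ IEL. These shares cannot be set against those of γδ IEL, 2.12% and 1.14%, since Cd4+Fcer1g+ IEL were chosen for a Cd4 UMI, and they do not show Cd4 above background.

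Among the Cd4 cells that met the rule apart from Fcer1g, thinned to 2000 UMIs, Fcer1g was found in 186 of 1138 young cells (16.3%, interval 14.2 to 18.6) and 576 of 1767 old cells (32.6%, 30.4 to 34.8). Unthinned, they were 209 of 1138 and 597 of 1776 cells. In SP the corresponding thinned shares were 12 of 1735 young cells (0.692%) and 5 of 1108 old cells (0.451%), and in naive CD4 T cells of SP, which should lack the gene, they were 0.526% and 1.20%, so SP was at about the background. The higher share in old IEL depended on the largest clonotype. Without the largest clonotype of each age, the share was 15.0% in young and 8.19% in old IEL, and the order of the ages turned. This removal was one-sided. Old clonotype 3, with 602 Cd4+Fcer1g- and 23 Cd4+Fcer1g+ cells before thinning, was kept among the 1295 old cells left and lowered their share. The share without both clonotypes was not computed. With each clonotype weighted equally, the share with Fcer1g was close between the ages, at 12.4% in young and 11.4% in old IEL.

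The label of these cells was checked on genes the rule did not use, with Cd8a and Klrd1 as the markers given for them. Cd8a (chr6:71373427-71379173, plus strand) was found in 182 of 209 young cells (87.1%, 81.8 to 91.3) and 572 of 594 old cells (96.3%, 94.4 to 97.7) after thinning, and in 92.8% and 98.0% before it. Klrd1 (chr6:129591782-129598775, plus strand) was found in 146 young (69.9%, 63.1 to 76.0) and 477 old cells (80.3%, 76.9 to 83.4), and in 87.1% and 93.1% before thinning. In naive CD4 T cells of SP, the thinned shares were 0.421% in young and 0.959% in old for Cd8a, and 3.89% and 1.20% for Klrd1. Without the largest clonotype of each age, Cd8a was found in 86.4% of young and 87.1% of old cells, and Klrd1 in 68.1% and 54.8%. With each clonotype weighted equally, Klrd1 was found in 61.0% of young and 45.2% of old cells, so the order of the ages for Klrd1 turned in both cases. Cells with 1 Fcer1g UMI, which mostly lacked Klrd1, weigh on these values. Of the 28 such old cells, 1 was of old clonotype 1 and 13 were of old clonotype 3. Among cells with at least 5 Fcer1g UMIs, the order did not turn, with Klrd1 in 94.7% of young and 98.2% of old cells before thinning.

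The same markers were compared in the other IEL. In Cd4-Fcer1g+ IEL, Cd8a was found in 93.7% of young and 98.1% of old cells, and Klrd1 in 75.3% and 81.6%, all after thinning. In γδ IEL, Cd8a was found in 83.0% and 93.2%, and Klrd1 in 68.1% and 76.7%. In Cd4+Fcer1g- IEL, Cd8a was found in 186 of 929 young and 628 of 1173 old cells (53.5%), and Klrd1 in 2.69% and 3.84%. The 25 young and 17 old cells of SP that met the full rule had Klrd1 in 3 and 2 cells, Cd8a in 2 and 1, and Cd5 in 18 and 15, and were not considered further.

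The clonal makeup differed between the pools. The 209 young Cd4+Fcer1g+ IEL belonged to 106 clonotypes, of which the largest held 18 cells (8.61%, 5.18 to 13.3), the 3 largest 41 cells (19.6%), and 76 clonotypes (71.7%) 1 cell each. The 597 old cells belonged to only 35 clonotypes, of which the largest held 472 cells (79.1%, 75.6 to 82.3) and the 3 largest 550 cells (92.1%). The old cells were thus mostly 1 expanded clone, which weighs on every old level and list count below, and values without it are given for the counts of genes and for some genes.

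Old clonotype 1, whose TRB junction holds only 5 bases between V and J, was paired with a TRAV5-1 TRAJ26 alpha chain in all 651 of its Fcer1g cells that had an alpha contig. That alpha junction, shown because it holds 0 bases between V and J, is as follows.
Old IEL clonotype 1, TRAV5-1 TRAJ26: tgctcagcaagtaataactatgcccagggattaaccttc
Over all old IEL, whether or not they met the rule, the clonotype had 747 cells, with Fcer1g in 744 (99.6%), Cd8a in all 747, and Klrd1 in 724 (96.9%). Cd4 was found in 485 of them (64.9%), and none lacked both Cd4 and Fcer1g.

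Old clonotype 2 was likewise uniform for Fcer1g, which was found in all of its 80 cells, with Cd4 in 58 (72.5%). Old clonotype 3 was of another kind: it had 811 cells, Cd4 in 649 (80.0%), and Fcer1g in only 42 (5.18%), of which 23 met the rule and 13 of these had 1 Fcer1g UMI. It was also found in old SP, where 1 cell had its TRB sequence together with its TRAV13D-2 TRAJ58 alpha chain. In old IEL, 602 of its cells were Cd4+Fcer1g-. Its 23 cells that met the rule had Cd5 in all 23 and Klrd1 in 9. In young IEL, the 3 largest clonotypes held 18, 15 and 8 Cd4+Fcer1g+ cells and 0 Cd4+Fcer1g- cells.

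**Figure D2:**
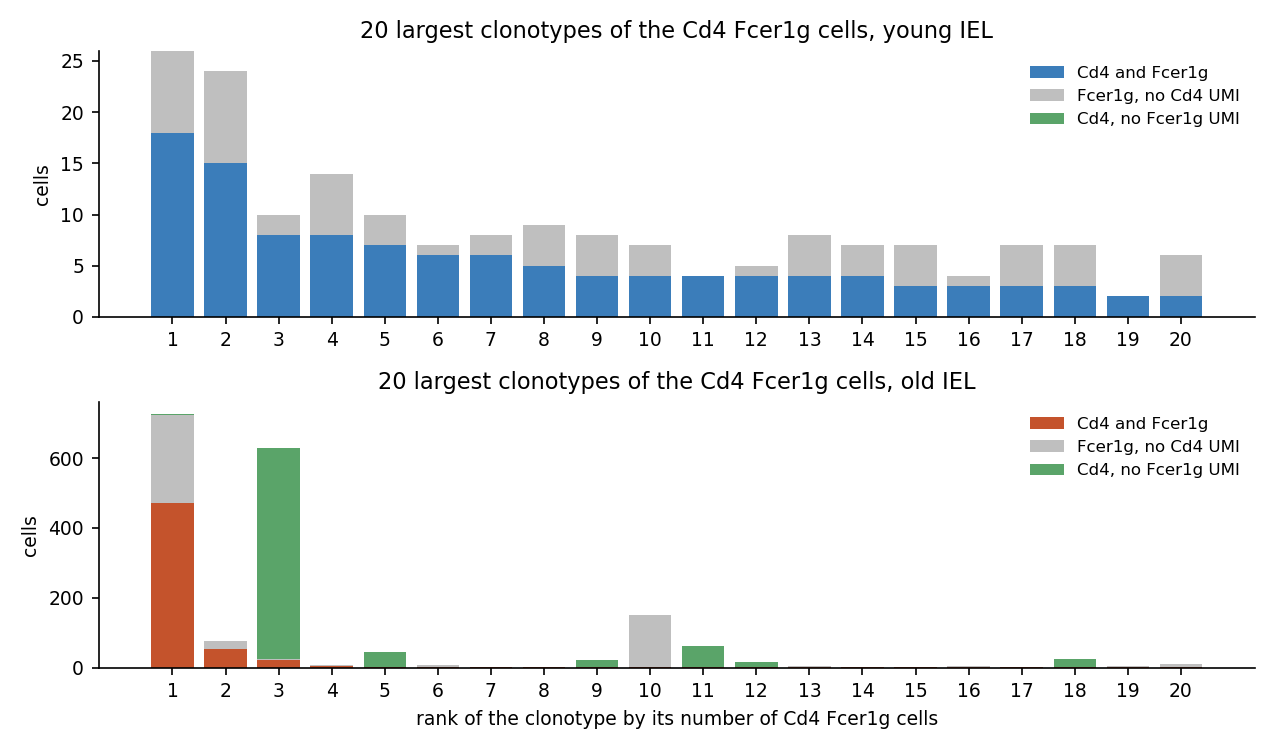
Cells of the 20 largest clonotypes of Cd4+Fcer1g+ IEL in young (upper) and old (lower) IEL, ranked by their number of Cd4+Fcer1g+ cells and split by whether Cd4 and Fcer1g were found. Old clonotype 1 has 472 cells with both genes and 250 with Fcer1g alone, and old clonotype 3 has 602 cells with Cd4 alone, which gives it a taller bar than its 23 cells with both would.

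Clonotypes were shared between Fcer1g cells with and without a Cd4 UMI. Of the young Cd4-Fcer1g+ IEL, 93 of 668 (13.9%, 11.4 to 16.8) had a clonotype that was also found in Cd4+Fcer1g+ IEL, and of the old ones 490 of 970 (50.5%, 47.3 to 53.7). Of these 490 cells, 250 were of clonotype 1 and 150 of a TRBV19 clonotype with only 2 Cd4+Fcer1g+ cells. The old share was 33.3% without clonotype 1 and 30.9% with at least 2 UMIs of Cd4 and of Fcer1g required. Seen from the other side, 132 of the young Cd4+Fcer1g+ cells (63.2%) and 571 of the old (95.6%) had a clonotype found in Cd4-Fcer1g+ IEL. The shared clonotypes were 38 in young and 16 in old IEL, which is 35.8% and 45.7% of the clonotypes of Cd4+Fcer1g+ IEL and 8.43% and 6.43% of those of Cd4-Fcer1g+ IEL.

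Sharing with Cd4+Fcer1g- IEL was less extensive in young IEL, where 16 cells (7.66%) had such a clonotype, than in old IEL, where 509 cells (85.3%) did. The old value includes the 472 cells of clonotype 1, of which 3 further cells had Cd4 and no Fcer1g UMI, so 3 cells set most of this share.

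Within clonotypes, the share of Fcer1g cells with a Cd4 UMI fell into high and low values. Of the 28 young clonotypes with at least 5 Fcer1g cells, 16 had Cd4 in 42.9% to 85.7% of their cells, 1 had it in 33.3%, and 11 had it in 0 of their 83 cells in all. Of the 30 such old clonotypes, 4 had Cd4 in 57.1% to 88.5%, 3 lay between 16.7% and 37.5%, and 23 had it in 10% or less, with 6 Cd4 cells among 389. The 4 old clonotypes with the high shares held 554 of the 597 old Cd4+Fcer1g+ IEL. As Cd4 chose the cells, this pattern is a description with no test.

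Large clonotypes of the same pool differed in this share. Old clonotype 1 had a Cd4 UMI in 65.4% of its Fcer1g cells (61.8 to 68.8) and a summed level of 2.13 Cd4 UMIs per 10000 (1.99 to 2.27). A TRBV19 clonotype of old IEL had Cd4 in 2 of 152 Fcer1g cells (1.32%, 0.160 to 4.67) and 0.0203 UMIs per 10000, which is at or below the share in γδ IEL. In young IEL, clonotype 1 had Cd4 in 69.2% (48.2 to 85.7) of its 26 Fcer1g cells, while a TRBV16 clonotype had it in 0 of 23 (upper bound 14.8%).

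**Figure D3:**
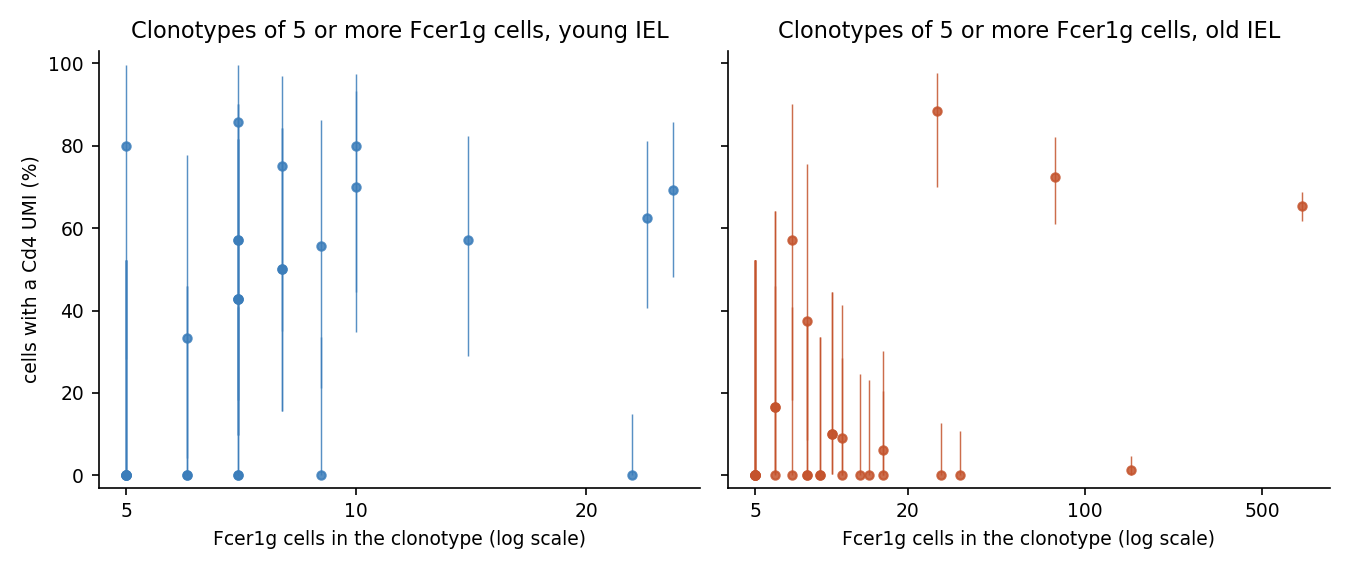
Percentage of Fcer1g cells with a Cd4 UMI (exact binomial 95% intervals) against the number of Fcer1g cells of the clonotype (log axis), for clonotypes of at least 5 such cells in young and old IEL, 1 point per clonotype. In young IEL 16 clonotypes lie at 42.9% or above and 11 at 0, and in old IEL 4 lie at 57.1% or above and 23 at 10% or below.

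Alpha chains gave a second view of the receptors. Young clonotype 4, with TRBV14, and old clonotype 2, with TRBV2, carried the same TRAV9D-3 TRAJ2 alpha chain with 0 bases between V and J, although no TRB sequence with this alpha was shared between the ages. Of the 28 alpha chain sequences found in both IEL pools, 4 had at least 10 cells in all. The 2 of these with at least 3 cells in each pool, a limit set after the values were seen, were found in Fcer1g cells and are shown. The other 2 were mostly in cells without Fcer1g, namely TRAV6-6 TRAJ13 (18 cells, 3 with Fcer1g) and TRAV16N TRAJ27 (11 cells, 0 with Fcer1g).
TRAV9D-3 TRAJ2: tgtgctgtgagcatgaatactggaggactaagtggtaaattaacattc
TRAV6-5 TRAJ22: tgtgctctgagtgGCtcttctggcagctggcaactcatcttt
The TRAV9D-3 TRAJ2 chain was found in 41 young IEL, with 7 different TRB sequences, and in 100 old IEL, with 3. All 141 cells had Fcer1g (interval 97.4 to 100), 140 had Klrd1 and 96 had Cd4, 18 young and 55 old cells met the full rule, and 0 of 9419 SP cells with an alpha contig carried it, which, taking 3 counts as the limit of a count of 0, allows a share of up to 0.0319%. The TRAV6-5 TRAJ22 chain was found in 10 young and 12 old cells, all 22 with Fcer1g, of which 11 met the rule. Among all IEL with an alpha contig, Fcer1g was found in 38.9% of young and 45.2% of old cells. Cells of 1 clonotype share their receptor, so these cells are not independent of each other.

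Gene levels were compared as summed UMIs per 10000 over the cells of a group, with a log2 ratio taken after adding 0.1 to both levels. Genes with a mean of at least 0.5, called measured here, were set against a fixed 2-fold limit, leaving out receptor segment genes and the 4 genes of the rule. In old IEL, Cd4+Fcer1g+ and Cd4-Fcer1g+ cells were close by this limit: of 3467 genes, 0 were 2-fold higher (0%) and 0 were 2-fold lower (0%), with a median absolute log2 ratio of 0.07. Within old clonotype 1 alone (472 against 250 cells), 0 genes passed the limit in either direction. Its Fcer1g cells had 2.13 Cd4 UMIs per 10000 at a median of 5531 UMIs per cell. At so low a count, 0 UMIs of Cd4 did not show its absence. This split of 1 clone therefore could hardly have shown a difference and says little about cells with and without Cd4. Without the cells of that clonotype on both sides, 16 genes were 2-fold higher and 2 lower, and with each clonotype weighted equally 52 were higher and 18 lower. At a minimum mean level of 0.2, 2 were higher (Cd5 and Cd6) and 4 lower (Plac8, Klra5, Klra6 and Klra7).

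The genes named for this comparison in old IEL were all under 2-fold once 0.1 was added to both levels. Pkp4, a plakophilin of cell junctions, was at 3.38 (3.19 to 3.58) in Cd4+Fcer1g+ and 1.83 (1.72 to 1.95) in Cd4-Fcer1g+ IEL, and Ifng, the gene of interferon gamma, at 0.856 (0.763 to 0.958) and 0.520 (0.463 to 0.583). Lower in Cd4+Fcer1g+ IEL were the NK receptor gene Klrb1a at 0.368 (0.308 to 0.437) against 0.756 (0.686 to 0.830), and the granzyme gene Gzmk at 0.661 (0.580 to 0.751) against 1.03 (0.948 to 1.12). Tyrobp was at 8.71 (8.41 to 9.02) against 12.7 (12.4 to 13.0). Within clonotype 1 Tyrobp was at 8.62 in Cd4+ and 8.49 in Cd4- cells, and their intervals overlapped. The direction of Klrb1a turned within clonotype 1, with a log2 ratio of 0.48 of Cd4+ over Cd4- cells.

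In young IEL, 7 of 3357 genes were 2-fold higher (0.209%) and 4 lower (0.119%) in Cd4+Fcer1g+ than in Cd4-Fcer1g+ cells. Among the 4 lower were 3 genes of the Ly49 family of NK receptors, which bind major histocompatibility complex class I: Klra7 at 0.655 (0.541 to 0.785) against 2.98 (2.82 to 3.13), Klra1 at 0.173 against 0.849, and Klra6 at 0.201 against 0.806. How reads were divided among the related genes of this family was not tested, and their levels are uncertain in that respect. The fourth, the chemokine gene Xcl1, was at 1.15 against 4.17, with 35.4% of the UMIs of Cd4+Fcer1g+ IEL in 1 cell. Klra5, a further Ly49 gene, was not lower over all cells, at 3.66 (3.38 to 3.95) against 2.84 (2.69 to 2.99). Without the cells of young clonotype 1 it was at 2.62 in Cd4+Fcer1g+ IEL, while the 2.84 still includes that clonotype.

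The 7 higher genes included Ctla4, an inhibitory receptor of activated and regulatory T cells, at 2.67 (2.44 to 2.93) against 1.05 (0.958 to 1.14), and Rora, a nuclear receptor of helper T cells and innate lymphoid cells, at 0.722 (0.603 to 0.858) against 0.308 (0.260 to 0.361). Il17a was at 2.87 against 0.00620, but its 512 UMIs lay in 7 cells, 41.6% of them in 1 cell, and 214 in cells with 1 Fcer1g UMI. The others were Hist1h2ae, Hist1h1b and Stmn1, which are expressed in dividing cells, and the galectin gene Lgals1. Possible doublets were more frequent here, since 23 of the 209 young Cd4+Fcer1g+ IEL had at least 2 productive TRB contigs, against 5.84% of young Cd4-Fcer1g+ cells, 1.17% of old Cd4+Fcer1g+ cells and 0.928% of old Cd4-Fcer1g+ cells. Without cells that had at least 2 TRB contigs or over 3 times the median UMIs of their pool, 5 genes were 2-fold higher and 3 lower in young IEL, and Rora, Hist1h1b and Klra1 were no longer among them.

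Against Cd4+Fcer1g- IEL the distance was larger. In old IEL, 120 of 3415 genes were 2-fold higher (3.51%) and 65 lower (1.9%) in Cd4+Fcer1g+ cells, with a median log2 ratio of -0.01 over all genes. As Fcer1g separates these groups, genes that go with it had to differ, and the values are a description. Without old clonotype 1, 77 genes were 2-fold higher, of which 73 were among the 120. The other side was uneven too, since 602 of the 1179 old Cd4+Fcer1g- IEL (51.1%) were of old clonotype 3, so that much of this comparison sets 1 clone against another. Without old clonotype 3 on both sides, an alternative chosen after seeing the data, 122 genes were higher and 88 lower, of which 115 and 61 were among those with it, and with each clonotype weighted equally 90 were higher and 75 lower, of which 62 and 27 were among those without weights. In young IEL, 116 of 3322 genes were 2-fold higher (3.49%) and 98 lower (2.95%). These shares of all genes are the background for the counts of listed genes that follow. The lists were chosen with earlier results of these data known. Their counts were not recomputed without old clonotype 1 or old clonotype 3, so in old IEL they too largely set 1 clone against another.

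Of the 6 measured ITAM adaptor and CD3 genes, Tyrobp was 2-fold higher and Cd247 2-fold lower in old IEL, and in young IEL Cd3g was 2-fold higher as well. Tyrobp (chr7:30413760-30417585, plus strand) was at 14.8 (14.2 to 15.4) in young and 8.71 in old Cd4+Fcer1g+ IEL, against 0.0423 and 0.0360 in Cd4+Fcer1g- IEL. Cd247 (chr1:165788681-165877277, plus strand), the zeta chain, was at 1.35 (1.19 to 1.54) and 1.47 (1.35 to 1.60) against 3.44 (3.30 to 3.58) and 3.59 (3.45 to 3.74). Cells with Fcer1g thus had a lower level of the zeta chain gene at both ages, in Cd4-Fcer1g+ IEL as well, at 1.14 in young and 1.11 in old.

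Of the receptors known to pair with the Fc receptor gamma chain, 11 of 12 listed genes were in the files and none reached the limit of 0.5 in old IEL, where 9 of them were at 0 in Cd4+Fcer1g+ cells. Fcgr3 (CD16) was at 0.364 (0.281 to 0.464) in young and 0.0223 (0.00963 to 0.0440) in old Cd4+Fcer1g+ IEL, and at 0.486 and 0.110 in Cd4-Fcer1g+ IEL. Hcst (DAP10), an adaptor without an ITAM, was at 5.11 in young Cd4+Fcer1g+ IEL (4.78 to 5.45) and 9.71 in old (9.39 to 10.0).

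Of 19 measured genes of proximal antigen receptor signalling, 8 were 2-fold higher in old Cd4+Fcer1g+ than Cd4+Fcer1g- IEL and 1 was lower, with a median log2 ratio of 0.53. In young IEL 8 of 20 were higher and 2 lower, with a median of 0.30. Those higher included Lyn, a Src family kinase of B and myeloid cells, at 1.61 (1.49 to 1.75) against 0.0329, Clnk, an adaptor of the SLP-76 family, at 2.15 against 0.0141, and Lat2, a relative of Lat, at 2.68 (2.52 to 2.86) against 0.157. Lat, the scaffold of T cell receptor signalling, was the 1 lower gene, at 3.33 (3.14 to 3.52) against 11.7. In young IEL, Lyn was at 1.80 against 0.0325, Clnk at 1.73 against 0.0169, Lat2 at 2.26 against 0.188 and Lat at 3.23 against 10.8. Zap70, the Syk family kinase of T cells, was close in all groups, at 3.86 in old Cd4+Fcer1g+ and 3.32 in Cd4+Fcer1g- IEL. Syk itself was at 0 UMIs in the Cd4+Fcer1g+ IEL of both ages, with upper bounds of the intervals of 0.0206 in young and 0.0103 in old.

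Conventional T cell receptors went the other way. Of 11 measured genes, 8 were 2-fold lower in old Cd4+Fcer1g+ IEL and 1 was higher, with a median log2 ratio of -2.70. In young IEL 9 of 12 were lower and 1 higher, with a median of -2.15. Cd5 was at 0.575 (0.499 to 0.659) against 7.68 (7.47 to 7.90) in old and at 0.655 (0.541 to 0.785) against 4.84 (4.68 to 5.01) in young IEL, and Cd6 at 0.558 against 7.07 and 0.526 against 3.91. In old IEL, Thy1, Cd28, Icos, Cd44, the CD40 ligand gene Cd40lg and the IL-7 receptor gene Il7r were the other lower genes. The higher one was Il2rb, the shared beta chain of the IL-2 and IL-15 receptors. In young IEL the same genes passed the limit, with Cd2 as a further lower one. In Cd4-Fcer1g+ IEL, Cd5 was lower again, at 0.0909 in young (0.0661 to 0.122) and 0.119 in old (0.0922 to 0.150). The Cd5 of old Cd4+Fcer1g+ IEL was unevenly spread over clonotypes, at 0.0630 in clonotype 1, 6.67 in clonotype 3 and 1.94 in all but the 3 largest.

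Of 17 measured genes of natural IEL, 6 were 2-fold higher in old Cd4+Fcer1g+ IEL and 0 lower, with a median log2 ratio of 0.54. In young IEL 10 of 17 were higher and 2, Xcl1 and the chemokine receptor gene Ccr9, were lower, with a median of 1.08. Ikzf2 (Helios) was at 7.20 (6.92 to 7.48) against 0.737 (0.672 to 0.807), the granzyme gene Gzma at 436 (434 to 438) against 175 (174 to 176), and Cd7 at 70.5 against 16.6. In young IEL, Ikzf2 was at 6.79 against 1.10, Gzma at 415 against 116 and Cd7 at 73.6 against 12.3. The other 3 higher genes in old IEL were Cd8a, the collagen receptor gene Itga1 and Il2rb.

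Among the 14 measured lineage regulators, Tox and Ikzf2 were 2-fold higher and Bcl11b, Tcf7 and Rora lower in old IEL, with a median log2 ratio of -0.04. In young IEL 1 of 18 was higher and 7 lower, with a median of -0.51. Runx3, which drives the CD8 programme, was at 2.68 (2.51 to 2.85) in old Cd4+Fcer1g+ and 2.33 (2.21 to 2.45) in Cd4+Fcer1g- IEL. Zbtb7b (ThPOK), the regulator of the CD4 lineage, was near the detection limit in both, at 0.0837 (0.0565 to 0.119) and 0.0579 (0.0408 to 0.0798), and Foxp3 was at 0.0167 against 0.122.

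Inhibitory and costimulatory receptors were split, with 7 of 13 measured genes 2-fold higher, 4 lower and a median log2 ratio of 1.20 in old IEL. In young IEL 6 of 14 were higher and 5 lower, with a median of 0.15. Lag3 (chr6:124904361-124911705, minus strand), a CD4-related inhibitory receptor, was at 5.98 against 0.595 in old and 3.87 against 0.920 in young IEL. Cd200r2, of the CD200 receptor family, was at 4.88 (4.65 to 5.11) against 0.174 in old and 2.83 against 0.0268 in young IEL. Ctla4 was at 0.976 (0.877 to 1.08) against 7.50 (7.29 to 7.72) in old and 2.67 against 8.32 in young IEL, and Cd28, Icos and Cd40lg were the other lower ones at both ages, with Tnfrsf4 in young IEL.

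Of the 10 measured cytokine and chemokine genes, Fgl2 was 2-fold higher and Ccl4, Ifng and Il17a lower in old Cd4+Fcer1g+ IEL, with a median log2 ratio of -0.34. In young IEL 3 of 12 were higher and 6 lower, with a median of -0.65. Ifng was at 0.856 against 4.34 (4.18 to 4.51). Of 18 measured early response genes, 0 were higher and 5 (Jun, Nr4a1, Zfp36, Nfkbia and Nfkbid) lower. Of 14 cytotoxic effector genes, 3 (Gzma, Ctsw and Serpina3g) were higher and Gzmk lower. In young IEL 1 of 18 early response genes was higher and 7 lower, and of 13 cytotoxic effector genes 5 were higher and 0 lower.

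**Figure D4:**
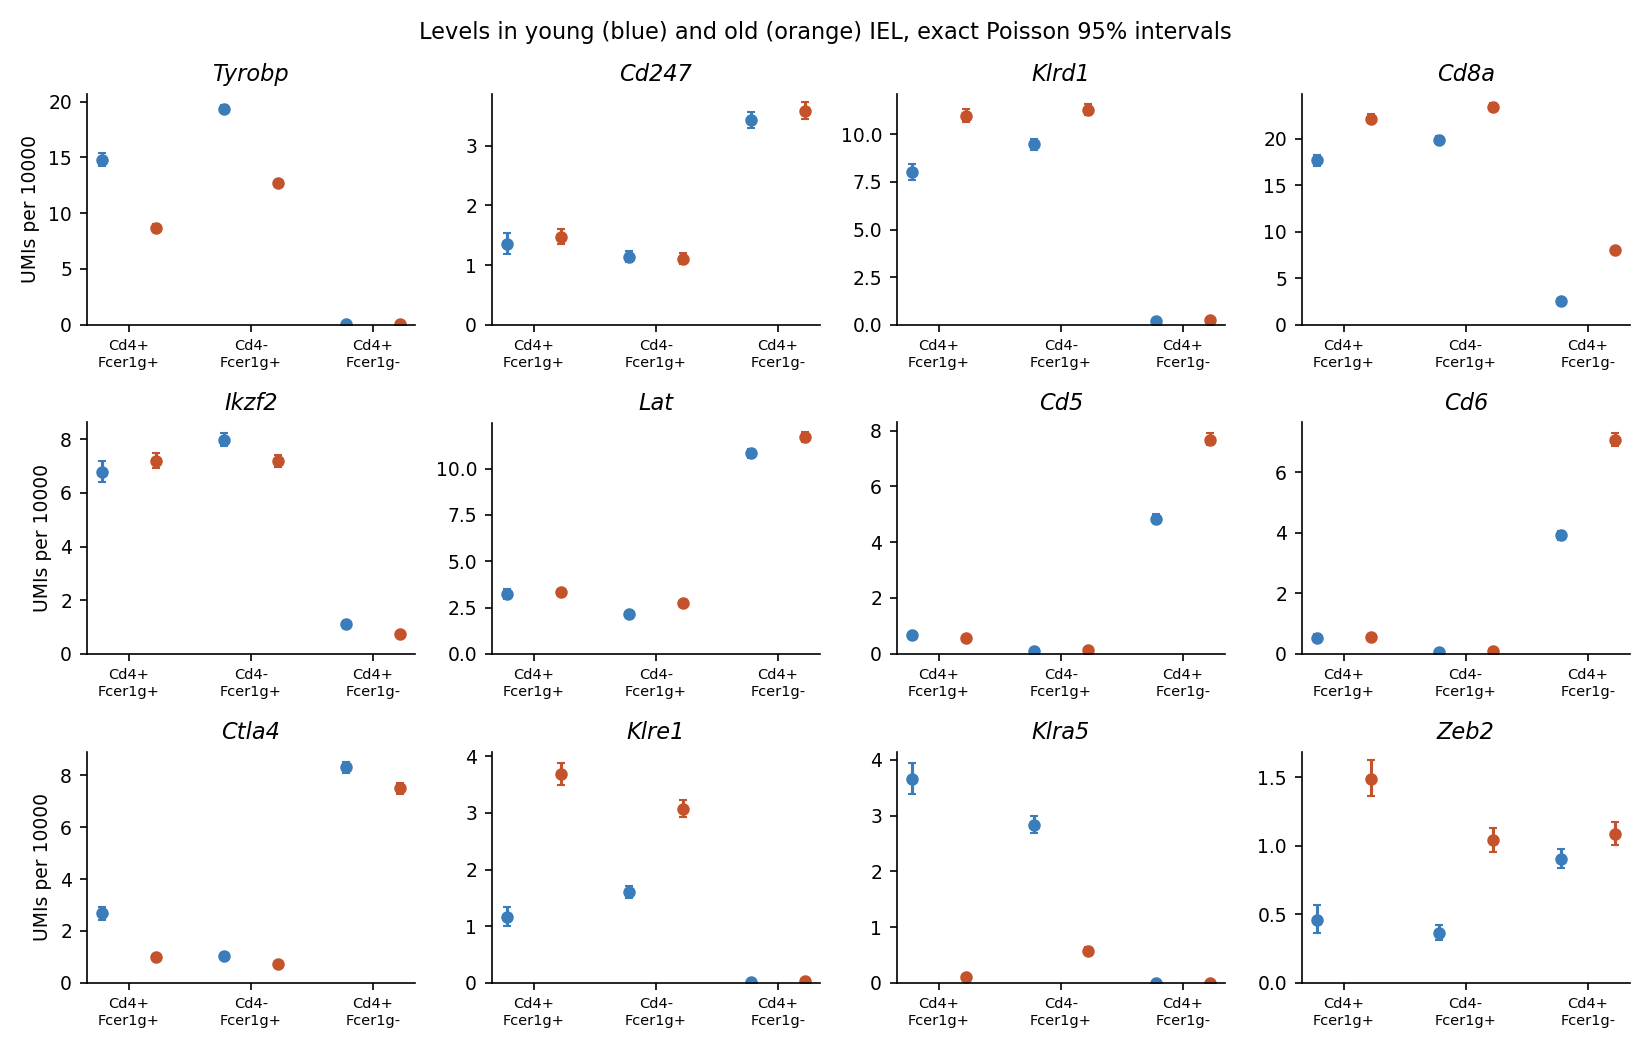
Summed level (UMIs per 10000, exact Poisson 95% intervals) of 12 genes in young (blue) and old (orange) Cd4+Fcer1g+, Cd4-Fcer1g+ and Cd4+Fcer1g- IEL, 1 point per pool. The 2 groups with Fcer1g lie on the same side of the third for Tyrobp, Klrd1, Ikzf2, Lat and Cd5, as for Lat at 3.33 and 2.72 against 11.7 in old IEL, although Cd5 also differs between them, at 0.575 and 0.119 in old IEL, while Klra5 and Klre1 differ between the pools.

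Between the ages, 29 of 3420 genes were 2-fold higher (0.848%) and 18 were 2-fold lower (0.526%) in old than in young Cd4+Fcer1g+ IEL, with a median log2 ratio of 0.02. Without the largest clonotype of each age, 22 were higher and 13 lower, of which 11 and 9 were among those with it. In Cd4-Fcer1g+ IEL of the same pools, 14 of 3421 genes were 2-fold higher (0.409%) and 8 lower (0.234%) in old cells.

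Among the higher genes, Bcl2l15, a gene of the Bcl-2 family, was at 0.213 (0.150 to 0.292) in young and 1.91 (1.77 to 2.06) in old Cd4+Fcer1g+ IEL. Without the largest clonotypes it was at 0.207 and 0.915, and in Cd4-Fcer1g+ IEL at 0.223 in young and 1.35 in old. Klre1 (chr6:129577905-129585827, plus strand), an NK receptor, was at 1.16 (1.01 to 1.33) and 3.69 (3.49 to 3.89), or 0.920 and 2.35 without the largest clonotypes. With each clonotype weighted equally it was at 0.895 and 1.48, which is below 2-fold. Its level varied between young clonotypes, from 3.89 in clonotype 1 to 0 UMIs in clonotype 3.

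Zeb2, a transcription factor of terminal effector cells, was at 0.459 (0.365 to 0.570) in young and 1.49 (1.37 to 1.62) in old Cd4+Fcer1g+ IEL, and at 0.494 and 1.38 without the largest clonotypes. Themis, a regulator of T cell receptor signalling, was at 0.515 (0.415 to 0.631) and 1.49 (1.36 to 1.62), and at 0.561 and 1.67 without them. Both were also higher in old than in young Cd4-Fcer1g+ IEL, at 1.04 against 0.366 for Zeb2 and 1.20 against 0.333 for Themis. Tnfsf8 (CD30 ligand) was at 0.229 and 0.873, or 0.219 and 0.677 without the largest clonotypes. The small GTPase gene Rhob was at 0.325 and 0.946, or 0.329 and 1.10 without them, and below 2-fold with equal weights. The sialyltransferase gene St3gal6 was at 0.492 and 1.67 but at 0.494 and 0.779 without the largest clonotypes, which is below 2-fold, as were Nup85, Ddc and Napsa.

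Among the lower genes, Klra5 (chr6:129898996-129917650, minus strand) differed between clonotypes. It was at 3.66 in young and 0.0948 (0.0657 to 0.133) in old Cd4+Fcer1g+ IEL. In young clonotype 1 it was at 15.3 (13.3 to 17.4), with UMIs in all 18 cells, and in young clonotypes 2 and 3 it had 0 UMIs. In old clonotype 1 it had 0 UMIs in 472 cells (upper bound 0.0137). Without the largest clonotypes the levels were 2.62 in young and 0.384 in old, and in Cd4-Fcer1g+ IEL they were 2.84 and 0.578.

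The remaining lower genes were unevenly spread over cells. Il17a was at 2.87 in young and 0.00837 in old Cd4+Fcer1g+ IEL, but the old level was 3 UMIs. Stmn1 was at 0.968 and 0.0614, with 24.9% of the young UMIs in 1 cell, Hist1h1b at 1.26 and 0.120, with 28.8% in 1 cell, and Hist1h2ae at 1.57 and 0.245, with 28.5% in 1 cell. Top2a was at 0.873 and 0.218, but 0.902 and 0.565 without the largest clonotypes. Ifi27l2a, an interferon-induced gene, was at 1.61 and 0.170, or 1.65 and 0.598 without the largest clonotypes, and below 2-fold with equal weights. Lgals1 was at 1.28 and 0.416, but at 1.37 in both pools without the largest clonotypes, and its log2 ratio turned to 0.10 with each clonotype weighted equally.

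**Figure D5:**
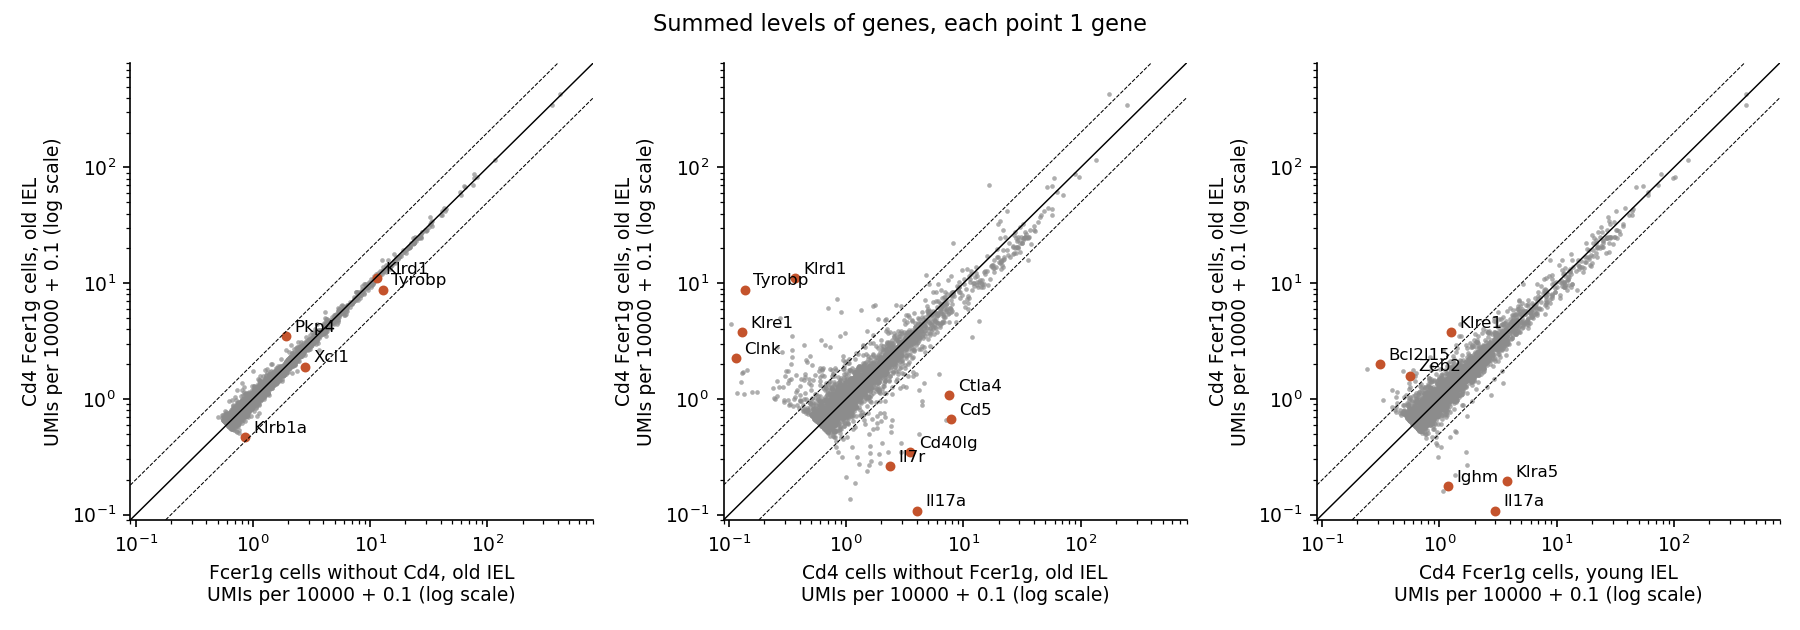
Summed levels (UMIs per 10000 plus 0.1, log axes), 1 point per gene with a mean level of at least 0.5, of old Cd4+Fcer1g+ IEL against old Cd4-Fcer1g+ IEL (left), old Cd4+Fcer1g- IEL (middle) and young Cd4+Fcer1g+ IEL (right), with equality as a solid and 2-fold as dashed lines. On the left 0 genes lie outside the dashed lines, in the middle 120 lie above and 65 below, and on the right 29 above and 18 below.

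Of 20 proximal signalling genes, 18 natural IEL genes, 6 conventional receptors and 6 ITAM adaptor and CD3 genes measured in the comparison of old with young, 0 were 2-fold higher or lower, with median log2 ratios of 0.13, 0.17, 0.02 and 0.11. With 0.848% higher and 0.526% lower over all genes, such counts are at the background and say nothing particular about these groups. Of 8 NK receptors, Klre1 was higher and Klrb1a and Klra5 lower, although Klrb1a was below 2-fold without the largest clonotypes and with equal weights, at a log2 ratio of -0.61 in both cases. Of 5 cell cycle genes, Top2a and Stmn1 were lower. Of 12 lineage regulators, Zeb2 alone passed the limit. Of 11 inhibitory and costimulatory receptors, Ctla4 alone did, and of 15 cytotoxic effector genes, Serpinb9 was higher.

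Markers of other cells that the pools could hold were low in Cd4+Fcer1g+ IEL and differed between the pools. The B and plasma cell list summed to 1.95 in young and 0.324 in old cells, with Ighm at 1.08 (0.933 to 1.24) in young, and Ighm was also higher in young Cd4-Fcer1g+ IEL, at 1.43 against 0.304 in old. The epithelial list summed to 1.30 in young and 0.605 in old cells, led by Epcam. The 6 of 12 γδ genes found under their listed names summed to 1.99 and 0.611, with Trdc at 0 by the rule. The γ constant genes are named otherwise in the files and are not in that sum, and Tcrg-C1 went the other way, at 0.834 in young and 6.55 in old cells. The naive T cell list summed to 2.04 and 0.664. The myeloid and mast cell list summed to 3.01 and 3.79, led by Cst3, with the mast cell genes Fcer1a and Ms4a2 at 0 UMIs, and the NK and ILC list to 0.548 and 0.279, with Ncr1 at 0. The part of these cells or of their free RNA in the values above was not tested.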

How the data were processed

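Small intestinal IEL and SP T cells of the 4 pools were measured by 5′ single-cell RNA and T cell receptor sequencing. The authors deposited raw UMI counts per gene and cell and lists of receptor contigs, without normalization, and the submitters' processing notes name Cell Ranger 7.0.1 and the mm10 genome. No sample column was left out of use for lack of a mapping. The members and gene lists were chosen with earlier results of these data known.

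Cells were selected on the deposited counts as described, with Python 3.11.15, numpy 2.4.6, scipy 1.17.1, pandas 2.3.3 and matplotlib 3.10.9. The clonotype of a cell was its productive TRB CDR3 nucleotide sequence with the most UMIs. For shares of cells, each cell was thinned at random to 2000 UMIs and shallower cells were left out, which took 3 of the 597 old Cd4+Fcer1g+ IEL and none of the young. Levels were summed UMIs per 10000, with a pseudocount of 0.1 in log2 ratios, a minimum mean level of 0.5 and a 2-fold limit. 272 receptor and gate genes were left out of the counts of genes. The comparison was tested on simulated data, in which 95 to 100 of 100 genes changed by 2.5-fold and all 100 of 100 changed by 4-fold passed the limit, with 0 unchanged genes. The simulated sums had Poisson counting error only, and the changed genes were drawn from levels above the minimum. Spread between cells, clonotypes and mice was not simulated, so these values give no rate of false calls for the real data.

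No doublet caller was run. Cells with at least 2 TRB contigs or over 3 times the median UMIs of their pool were left out as an alternative. Other alternatives were thinning to 1000 UMIs or before the gate, at least 2 UMIs of Cd4 and Fcer1g, leaving out the largest clonotype, equal weight of clonotypes, other clonotype definitions, a Cd4-negative group with Cd8b1 and Trdc allowed, a pseudocount of 0.5, a minimum of 0.2, and scaling without the 20 most abundant and the mitochondrial genes. Old and young Cd4+Fcer1g+ IEL were also compared without cells with a UMI of Mki67 or Top2a, and with at least 2 UMIs of Fcer1g and 1 of Cd4. UMIs of 1 cell share their source, so intervals cover counting error only.

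Genes named were the 10 highest and 10 lowest of each comparison by log2 ratio, leaving out gene models with only a Gm, Rik or AC name, and up to 6 genes of each list by level, and the 3 largest clonotypes per age, of which some items are not reported here. Klra1, Klra6, Klra7, Zbtb7b, Foxp3, Fcgr3, Syk and other list genes named beyond these were added after their values were seen. Positions of genes were taken from GENCODE M21 (GRCm38), to which 32235 of 32285 gene IDs (99.8%) matched. Libraries of pooled hashtags and receptor reads that the labels put in no single group were not used for comparisons.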

Additional observations from a re-analysis of the deposited data

Results flagged for a closer look

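For 4 genes the sign of the difference between Cd4+Fcer1g+ and Cd4-Fcer1g+ IEL was not the same in both IEL pools. The log2 ratio of Cd4+Fcer1g+ over Cd4-Fcer1g+ cells was 1.13 in young and -0.91 in old IEL for Stmn1, 1.41 and -0.88 for Hist1h1b, and 2.26 and -0.59 for Hist1h2ae. It was 1.06 and -0.50 for Lgals1, where 45.4% of the UMIs of old Cd4-Fcer1g+ IEL lay in 1 cell. Within old clonotype 1 it had the sign of young IEL for Lgals1 (0.34) and Hist1h1b (0.32), but not for Stmn1 (-0.05) and Hist1h2ae (-0.37). Each was flagged because the sign differed between the ages, and the difference was not tested. In old Cd4+Fcer1g+ IEL, 59.1% of the Stmn1, 67.4% of the Hist1h1b and 60.2% of the Hist1h2ae UMIs lay in 1 cell each, at levels of 0.0614, 0.120 and 0.245. Of the cell cycle list, 5 of 5 measured genes had a log2 ratio above 0 in young IEL, with a median of 0.36 and Stmn1 2-fold higher, and 1 of 3 in old IEL, with a median of -0.02. In old IEL 0 of all 3467 genes were 2-fold lower, so the 0 of this list says nothing particular about it. The log2 ratio of old over young cells for Hist1h2ae was -2.28 in Cd4+Fcer1g+ and 0.57 in Cd4-Fcer1g+ IEL, again of opposite sign and not tested.

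The rule left out Cd4 and Fcer1g cells with a UMI of Cd8b1, which were flagged as cells outside the comparisons. There were 18 among the 461 TRB-bearing Cd8b1 cells of young IEL and 11 among the 369 of old IEL. Of these, 6 in each pool had a TRB sequence of Cd4+Fcer1g+ IEL.

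The TRAV9D-3 TRAJ2 alpha chain was flagged as receptor data outside the gene comparisons, since all 141 IEL that carried it, in both pools, had Fcer1g.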

How the results depend on the processing

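Of 132 recomputed values of the main results, 81 stayed within their interval or within 1.5 times, and 51 moved by more. These are shares and counts that have no sign, but the order of the ages turned for the share with Fcer1g and for Klrd1 without the largest clonotypes and with equal weights. Old clonotype 3, with 602 Cd4+Fcer1g- cells, was kept in these values. No paired analysis was possible because each group was 1 pool. The share of Cd4 cells with Fcer1g was 12.4% in young and 11.4% in old IEL with clonotypes weighted equally, 8.19% in old IEL without the largest clonotype, and 30.0% in old IEL at 1000 UMIs. Cd8a was found in 75.1% of young and 84.6% of old Cd4+Fcer1g+ IEL at 1000 UMIs, in 78.1% and 78.4% with clonotypes weighted equally, and in old cells in 99.3% with at least 2 UMIs of Cd4 and Fcer1g and 87.1% without the largest clonotype. Klrd1 was found in 56.9% and 58.8% at 1000 UMIs, 76.5% and 84.0% with at least 2 UMIs, 61.0% and 45.2% with equal weights, and in 54.8% of old cells without the largest clonotype. The largest old clonotype held 72.0% when defined by TRB and TRA together or by Cell Ranger's number. Old Cd4-Fcer1g+ IEL had a clonotype of Cd4+Fcer1g+ IEL in 42.6% with thinning before the gate, 30.9% with at least 2 UMIs, 33.3% without the largest clonotype, 44.8% with Cd8b1 and Trdc allowed, and 38.8% by TRB and TRA together.

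Genes 2-fold higher in old than young Cd4+Fcer1g+ IEL numbered 85 with thinning before the gate, 45 with equal weights, 13 at a pseudocount of 0.5 and 58 at a minimum level of 0.2. Those lower numbered 51, 9 at the larger pseudocount, 45 at the lower minimum, and 28 with the other scaling. Leaving out cells with a UMI of Mki67 or Top2a kept 541 old and 129 young cells. Then 35 genes were higher and 17 lower, of which 29 and 13 were among those with these cells. With at least 2 UMIs of Fcer1g and 1 of Cd4, 29 were higher and 19 lower. Against old Cd4-Fcer1g+ IEL, 16 were higher and 2 lower without the largest clonotype, 52 and 18 with equal weights, 2 and 4 at a minimum of 0.2, and 3 and 2 against cells of unshared clonotypes, an alternative chosen after seeing the data. In young IEL, 19 were higher and 18 lower with thinning before the gate, of which only 2 and 2 were among those without it. There, 16 were higher with equal weights, 3 at a pseudocount of 0.5 and 18 at a minimum of 0.2, and 4 were higher and 2 lower with Cd8b1 and Trdc allowed in young Cd4-negative cells. Against old Cd4+Fcer1g- IEL, 77 were higher without the largest clonotype, 75 at a pseudocount of 0.5 and 210 at a minimum of 0.2, where 125 were lower. Among the genes named in these 4 comparisons, those for which alternatives were run, Lgals1 reversed, to a log2 ratio of 0.10 of old over young with equal weights. Within old clonotype 1, some log2 ratios of Cd4+Fcer1g+ over Cd4-Fcer1g+ cells also turned, as for Klrb1a (0.48), Lgals1 (0.34) and Nup85 (-0.08). Of the named genes at least 2-fold apart, 5 of 20 of old over young, 5 of 11 against young Cd4-Fcer1g+ and 18 of 20 against old Cd4+Fcer1g- IEL stayed so under every alternative run.

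With 1 pool per age, neither age nor the mix of sorted cells can be told apart from the pool. The low counts of Cd4, at 1 UMI in 50.4% of old Cd4+Fcer1g+ IEL, limit every comparison with Cd4-negative cells.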

Other observations

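Receptor segments differed between the groups in young IEL. TRBV16 was used by 16.0% of the clonotypes of young Cd4+Fcer1g+ IEL and 18.6% of those of Cd4-Fcer1g+ IEL, against 5.17% in Cd4+Fcer1g- IEL. In old IEL the shares were 2.86%, 12.9% and 1.90%. The stretch ACTGGGGG, chosen after the junctions of young clonotypes 2 and 3 were seen, was present in the TRB CDR3 of 28 of 106 clonotypes of young Cd4+Fcer1g+ IEL (26.4%, 18.3 to 35.9), 23.9% in Cd4-Fcer1g+ IEL and 65 of 542 in Cd4+Fcer1g- IEL. In old IEL it was present in 2 of 35 (5.71%), 14.9% and 13.3%, and in Cd4 cells of SP in 11.7% of young and 9.88% of old clonotypes. It lies in a region of germline D sequence, and no test was made.

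Constant region genes of the receptors, which were left out of the gene counts, are given here as levels. Tcrg-C1 was at 0.834 (0.705 to 0.979) UMIs per 10000 in young and 6.55 (6.29 to 6.82) in old Cd4+Fcer1g+ IEL, although Trdc was at 0 by the rule, and at 1.02 and 2.63 in Cd4-Fcer1g+ IEL. In old clonotype 1 it was at 7.23, and in old Cd4+Fcer1g+ IEL without it at 4.47. Tcrg-C2 was at 1.82 in young and 2.24 in old cells, and the intervals of Tcrg-C4 were 2.27 to 2.74 and 2.89 to 3.26. Trbc1 was at 1.56 in young and 0.485 in old Cd4+Fcer1g+ IEL but at 1.92 in old cells without clonotype 1, which is above the level of all young cells. The young level without the largest young clonotype is not given here. Trbc1 was at 0.0148 in old clonotype 1, whose TRBJ2-3 segment lies upstream of the other constant gene, Trbc2.

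Cells with Cd4, Fcer1g and a TRB contig but a UMI of Trdc numbered 44 in young and 35 in old IEL, and 6 and 27 of these had a TRB sequence of Cd4+Fcer1g+ IEL.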
